A study of Mus musculus with 16 samples.

Results

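The miR-106b, miR-93 and miR-25 hairpins are 3 microRNA (miRNA) precursors that lie together in an intron of Mcm7, and their 6 mature arms were followed by name through every library. The arms are miR-106b-5p, miR-106b-3p, miR-93-5p, miR-93-3p, miR-25-5p and miR-25-3p, 6 of 2274 miRNA names in the tables, and they held 0.229% to 0.997% of the miRNA reads of a library. C2C12, a mouse myoblast line that fuses into multinucleate myotubes when serum is lowered, was sampled as wild-type control cells and as cells labelled as a triple knockout (tKO) of miR-206 and both miR-1a genes, miR-1a-1 and miR-1a-2. Both were sampled as myoblasts in growth medium with fetal bovine serum (GM) and as myotubes after 3 days in a lower share of horse serum (DM3), and the protocol describes the cells as PAX7 NEG. The 16 libraries form 4 groups of 4: control GM, control DM3, tKO GM and tKO DM3. The 4 libraries of a group come from 2 lines, each with replicates 1 and 2, so they are not 4 independent lines. A control line is a population and a tKO line is a single clone, and no label says how the replicates were separated, so p-values measure the spread between these libraries.

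The cluster is the smaller relative of the miR-17-92 cluster and of the miR-106a-363 cluster on the X chromosome. A miRNA pairs with messenger RNAs mainly through its seed, bases 2 to 8, so arms with the same seed are expected to share many targets. The family is best known for targets that brake the cell cycle, such as Cdkn1a for the miR-106b and miR-93 5p arms, and Mcm7 encodes a subunit of the replicative helicase, made in dividing cells. Myoblasts divide in growth medium and leave the cell cycle as they differentiate. One arm of a hairpin is usually kept as the guide, and the other is mostly lost.

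The mature sequences are shown because they define which arms can act alike. They are RefSeq entries on GRCm38.p6, written 5′ to 3′ with the seed in capitals; all 6 members matched.
miR-106b-5p: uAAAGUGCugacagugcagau
miR-93-5p: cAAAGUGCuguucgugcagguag
miR-25-3p: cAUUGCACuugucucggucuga
miR-106b-3p: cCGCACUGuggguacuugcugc
miR-93-3p: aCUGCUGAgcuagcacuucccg
miR-25-5p: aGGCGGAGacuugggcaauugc

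The 6 arms carry 5 seeds. The seed AAAGUGC was shared by miR-106b-5p and miR-93-5p, and by 7 of 1679 mature entries of the RefSeq table in all: the others were miR-17-5p, miR-20a-5p, miR-20b-5p, miR-106a-5p and miR-6383. The seed AUUGCAC of miR-25-3p was found in 6 entries, together with miR-92a-3p, miR-92b-3p, miR-32-5p, miR-363-3p and miR-367-3p. The seeds of miR-106b-3p, miR-93-3p and miR-25-5p each occurred once in the table. The closest relatives in abundance are printed for comparison.
miR-17-5p: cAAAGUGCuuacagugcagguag
miR-20a-5p: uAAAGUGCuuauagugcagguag
miR-92a-3p: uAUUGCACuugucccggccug

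On GRCm38.p6 the hairpins lie on the minus strand of chromosome 5, in the order of transcription Mir106b (chr5:138165737-138165818), Mir93 (chr5:138165523-138165610) and Mir25 (chr5:138165321-138165404). The gaps between them are 126 and 118 bases, and the whole cluster spans 498 bases. In GENCODE M21 all 3 lie in intron 13 of the 15-exon transcript Mcm7-201, an intron of 748 bases. The RNA of Mcm7 itself was not measured here.

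The libraries held 112792 to 6543570 reads assigned to miRNA names. Replicate 2 was sequenced more deeply than replicate 1 throughout the 4 groups. The smallest, tKO DM3 line 1 replicate 1, also had the lowest share of reads that matched a hairpin (55.7%) and the highest share under 16 nucleotides (13.98%), and the main tests that use tKO DM3 are given with and without it. Of the deleted miRNAs, miR-206-3p stood at 1156 ± 297 reads per 1000000 miRNA reads (CPM, mean ± SD, n = 4) in control GM. It stood at 34361 ± 16201 in control DM3, against 6.79 ± 6.38 in tKO GM and 21.8 ± 33.0 in tKO DM3. miR-1a-3p stood at 109 ± 60.8 CPM in control DM3 and 3.00 ± 3.20 in tKO DM3. In GM it stood at 5.27 ± 2.49 (control) and 1.39 ± 1.31 CPM (tKO). These GM values rest on 2 to 25 and 0 to 6 reads, so they check this deletion only weakly. The muscle miRNAs miR-133a-3p and miR-133b-3p were also present in differentiated cells, at 1586 ± 447 and 494 ± 169 CPM in control DM3. In tKO DM3 they stood lower, at 345 ± 297 and 93.4 ± 75.2 CPM, with no overlap with control DM3. The 8 markers of other cell types had summed levels of 33.2 to 59.0 CPM (control) and 22.2 to 112 CPM (tKO) in growth medium, and of 8.07 to 25.4 CPM (control) and 6.79 to 44.0 CPM (tKO) after differentiation. miR-124-3p, a neuronal miRNA, was at 0 in every library, while miR-122-5p, the main liver miRNA, stood at 20.4 ± 11.1 CPM in control GM and 2.02 ± 1.40 in control DM3. This marker moved with the medium, and its part in the results was not tested.

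The arms lay at 3 levels. By group mean, miR-25-3p and miR-93-5p were the most read in each group and overlapped with each other, miR-106b-3p followed, and miR-106b-5p, miR-25-5p and miR-93-3p did not exceed 197 CPM in any library. Levels are shares of the miRNA reads of the library, with no correction for the sequence bias of adapter ligation, so small differences between arms are not differences in molecules.

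**Figure D1:**
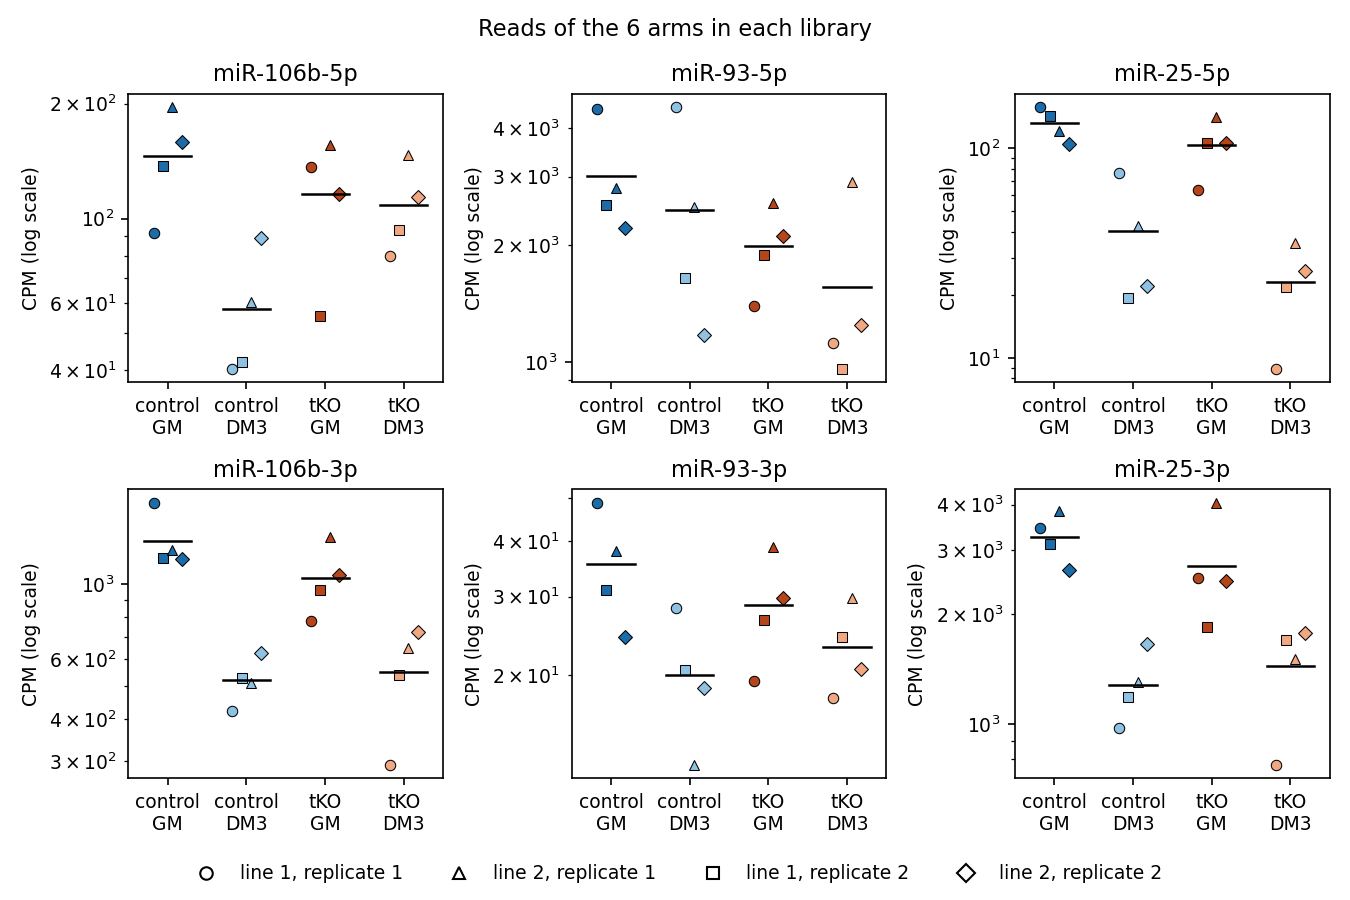
Reads of the 6 arms per 1000000 miRNA reads (CPM, log axis) in each of 16 libraries; symbols mark line and replicate and bars are means of 4. In control cells the DM3 libraries lie below the GM libraries for miR-106b-5p, miR-106b-3p, miR-25-5p and miR-25-3p, while those of miR-93-5p overlap.

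miR-25-3p, the guide arm of its hairpin, had the highest mean of the 6 arms in control GM. It stood at 3455 and 3835 CPM in replicate 1 of control GM lines 1 and 2, and at 3121 and 2653 in replicate 2 (mean 3266 ± 502). In control DM3 the same order of libraries gave 972, 1304, 1189 and 1661 CPM (1282 ± 288), all below every GM library. In tKO GM it stood at 2519.5, 4054, 1846 and 2473 CPM (2723 ± 939), and in tKO DM3 at 771, 1510.4, 1701 and 1773 (1439 ± 459). The tKO groups did not overlap on this scale either, but the highest DM3 and the lowest GM library were close.

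miR-106b-3p is the arm annotated opposite the seed-family arm of miR-106b, and was the one most reads came from. In control GM it stood at 1743, 1259, 1197 and 1185 CPM (1346 ± 266), in the same order of libraries, and in control DM3 at 423, 510.0, 529 and 629 (523 ± 84.2). In tKO GM the values were 781, 1383, 961 and 1062 CPM (1047 ± 252), and in tKO DM3 293, 649, 539.8 and 724 (551 ± 188). In both genotypes every DM3 library lay below every GM library.

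miR-93-5p, one of the AAAGUGC arms, behaved less evenly. It stood at 4469.7, 2809, 2539 and 2217 CPM in control GM (3009 ± 1004) and at 4545, 2507, 1647 and 1171 in control DM3 (2468 ± 1491). In tKO GM it stood at 1395, 2568, 1887 and 2114 CPM (1991 ± 488), and in tKO DM3 at 1117, 2903, 958 and 1242 (1555 ± 906). GM and DM3 overlapped in both genotypes. The highest value in each DM3 group was a replicate 1 library.

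The minor arms rest on fewer reads. miR-25-5p stood at 158, 121, 143 and 105 CPM in control GM (132 ± 23.6) and at 76.6, 42.7, 19.4 and 22.1 in control DM3 (40.2 ± 26.4). In tKO GM it stood at 63.0, 141, 106.2 and 106.3 CPM (104 ± 31.9), and in tKO DM3 at 8.87, 35.3, 21.8 and 25.97 (22.97 ± 10.97), where the lowest value is 1 read. No DM3 library reached the lowest GM library of its genotype.

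miR-106b-5p, the seed-family arm of miR-106b, stood at 91.7, 197, 138 and 158 CPM in control GM (146 ± 43.7) and at 40.3, 60.3, 42.1 and 88.9 in control DM3 (57.9 ± 22.6). In tKO GM it stood at 137, 155, 55.6 and 116 CPM (116 ± 43.3), and in tKO DM3 at 79.8, 147, 93.1 and 114 (108 ± 29.1). Control GM and DM3 just failed to overlap, and the tKO groups overlapped almost wholly. miR-93-3p, the least read arm with 2 to 179 reads in a library, had means of 35.5 ± 10.5 CPM in control GM, 20.0 ± 6.45 in control DM3, 28.7 ± 8.08 in tKO GM and 23.1 ± 5.22 in tKO DM3.

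The first comparison asks how the cluster changes when control myoblasts differentiate. Of the 6 arms, 5 fell in DM3 (edgeR quasi-likelihood test over 807 names, Benjamini-Hochberg adjusted p under 0.05), where 11.8% of all names tested were called lower. miR-25-5p fell by 2.24 on the log2 scale (SE 0.44, adjusted p = 0.000911), the largest change of the 6, and miR-25-3p fell by 1.70 (SE 0.39, adjusted p = 0.00312), which is 3.24-fold. miR-106b-3p fell by 1.71 (SE 0.37, adjusted p = 0.00183) and miR-106b-5p fell by 1.66 (SE 0.48, adjusted p = 0.0143). miR-93-3p fell 2.29-fold (log2 SE 0.37, adjusted p = 0.0198). miR-93-5p did not pass the test: its log2 fold change was -0.75 (95% interval -1.59 to 0.09, adjusted p = 0.174). The same lines occur in both media, and with line and replicate number as blocks miR-93-5p was called lower (-0.80, adjusted p = 0.0142). After TMM scaling, the 5 called arms were also those whose control groups did not overlap, a pattern held by 15.7% of names in this direction. The share of short reads also moved with the medium. In control cells, reads under 16 nucleotides made up 1.07% to 1.89% in GM and 3.31% to 9.59% in DM3, with no overlap. The share that matched a hairpin was 70.8% to 78.1% in control GM and 61.4% to 73.8% in control DM3. The part of these shares in the result was not tested. Fewer cells with the miRNA and less of it per cell cannot be told apart in these bulk libraries.

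The calls of miR-25-5p, miR-25-3p and miR-106b-3p held under each of 12 other settings and each of 16 omissions of a library, with adjusted p-values up to 0.0480. miR-106b-5p kept its call in 11 of 12 settings and 13 of 16 omissions. It lost it without control GM line 2 replicate 1 (adjusted p = 0.0722), control DM3 line 1 replicate 1 (0.0530) or control DM3 line 1 replicate 2 (0.0645). miR-93-3p kept its call in 8 of 11 settings and 13 of 16 omissions; the exceptions among libraries were control GM line 2 replicate 1 (0.0817), control DM3 line 2 replicate 1 (0.0698) and control DM3 line 1 replicate 2 (0.0555). When the 2 replicates of each line were summed, leaving 2 lines against 2, miR-25-5p, miR-25-3p and miR-106b-3p were still called. Scaling by total reads in place of TMM moved the median of all names from 0.02 to 0.39 on the log2 scale and turned the split of calls from 128 higher and 95 lower into 153 higher and 62 lower. On that scale 4 of the 6 arms were still called lower; miR-25-3p was at -1.35 (adjusted p = 0.00305), and miR-93-3p, at -0.83, was not called (adjusted p = 0.112).

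In tKO cells 3 of the 6 arms fell with differentiation, where 8.3% of names tested were called lower. The muscle miRNA miR-133a-3p reached 65.8 to 762 CPM in tKO DM3, against 1130.5 to 2190 in control DM3, and the part of this difference in the results for tKO cells was not tested. miR-25-5p fell by 2.28 on the log2 scale (SE 0.44, adjusted p = 0.00165), miR-25-3p fell 2.29-fold (log2 SE 0.39, adjusted p = 0.0368) and miR-106b-3p fell 2.22-fold (log2 SE 0.36, adjusted p = 0.0332). miR-106b-5p, miR-93-5p and miR-93-3p had log2 fold changes of -0.39, -0.61 and -0.52, with adjusted p-values of 0.618, 0.312 and 0.341. With line and replicate number as blocks miR-93-5p was called here too (-0.74, adjusted p = 0.0319). TMM-scaled groups did not overlap for miR-25-5p and miR-106b-3p, 2 of 6, where 9.54% of names did so in this direction. The call of miR-25-5p held in all 12 settings and all 16 omissions. Those of miR-25-3p and miR-106b-3p were fragile: each held in 9 of 12 settings, but in 2 and 3 of the 16 omissions. The largest adjusted p-values among omissions, 0.211 and 0.178, came without tKO GM line 2 replicate 1, at -0.91 and -0.92. Other calls were lost with the estimate about as large. Without control GM line 2 replicate 1, outside this comparison, the 2 arms were at -1.21 (edgeR adjusted p = 0.0622) and -1.14 (0.0652). In the main fit they were at -1.20 and -1.15. Without the smallest library, tKO DM3 line 1 replicate 1, miR-25-3p was at -0.96 (adjusted p = 0.115), miR-106b-3p at -0.89 (adjusted p = 0.106) and miR-25-5p at -2.10 (adjusted p = 0.00222); miR-106b-5p, miR-93-5p and miR-93-3p were at -0.26, -0.43 and -0.42 and again not called. miR-93-5p passed the test without tKO DM3 line 2 replicate 1 (-1.16, adjusted p = 0.0497). Scaling by total reads moved the median of all names from 0.01 to 0.24 and the split of calls from 92 higher and 67 lower to 110 and 43; all 3 called arms kept their calls there.

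**Figure D2:**
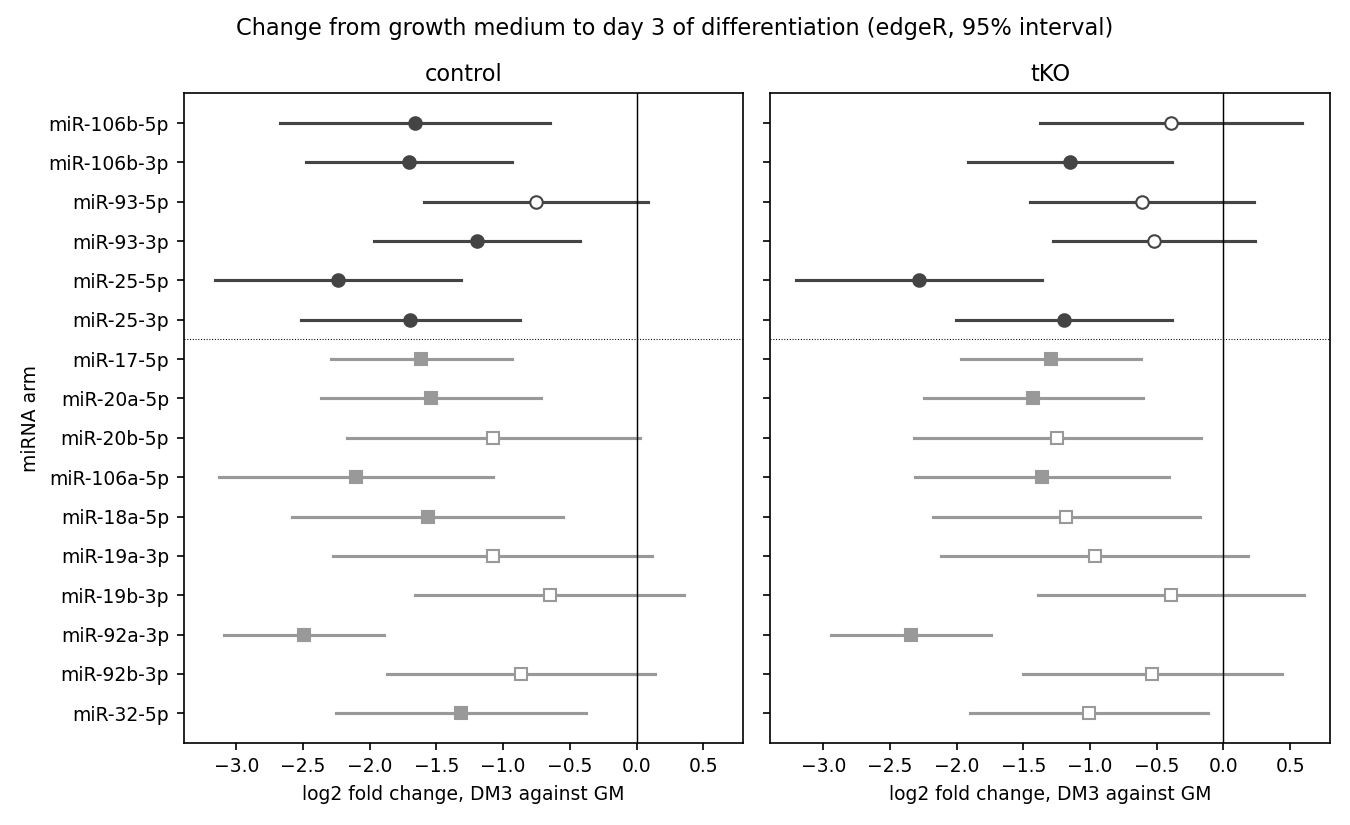
Log2 fold change from GM to DM3 with its 95% interval (edgeR) in control and tKO cells for the 6 cluster arms (circles, above the dotted line) and 10 tested paralogues (squares); filled symbols have an adjusted p under 0.05. All estimates lie below 0 under TMM scaling, and miR-93-5p is open in both genotypes in this fit, which has no block for line or replicate number.

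Values within a line are given with no test. miR-25-3p was 3.04-fold lower in DM3 than in GM in control line 1, 2.19-fold lower in control line 2, 1.77-fold lower in tKO clone 1 and 1.99-fold lower in tKO clone 2, as ratios of 2-library mean CPM. For miR-25-5p the same ratios were 3.14, 3.49, 5.52 and 4.04. For miR-93-5p they were 1.13, 1.37, 1.58 and 1.13.

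Values within a replicate number were compared as geometric means over the lines (CPM + 1). In control cells, the ratio of DM3 to GM for miR-93-5p was 0.953 in replicate 1 and 0.586 in replicate 2; in tKO cells it was 0.952 and 0.546. miR-25-3p went the other way, at 0.309 and 0.489 in control cells and 0.338 and 0.813 in tKO cells. miR-106b-3p stood at 0.314 and 0.484 in control cells and 0.420 and 0.619 in tKO cells. miR-25-5p had ratios of 0.418 and 0.176 in control cells, further below 1 in replicate 2 as for miR-93-5p, and of 0.198 and 0.231 in tKO cells. miR-106b-5p had ratios of 0.372 and 0.419 in control cells, but in tKO cells it lay below 1 in replicate 1 (0.744) and above 1 in replicate 2 (1.28). miR-93-3p had ratios of 0.452 and 0.724 in control cells and of 0.843 and 0.804 in tKO cells. Depth moved with the replicate number in every group, and its part was not tested.

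The second comparison asks whether the loss of miR-206 and miR-1a changes the cluster. None of the 6 arms was called between tKO and control in GM, where edgeR called 1.12% of 807 names, or in DM3, where it called 0.867%; 65 and 90 names, but no arm, had an unadjusted p under 0.05. The DESeq2 Wald test called no arm either. In GM the 6 log2 fold changes ran from -0.66 for miR-93-5p (95% interval -1.498 to 0.18) to -0.31 for miR-25-3p (-1.11 to 0.49), all below 0. In DM3 they ran from -0.52 for miR-93-5p (-1.36 to 0.32) to 0.88 for miR-106b-5p (-0.12 to 1.89). Without tKO DM3 line 1 replicate 1 they ran from -0.26 for miR-93-5p to 1.10 for miR-106b-5p (edgeR adjusted p = 0.199), and none was called. In GM every one of the 6 intervals reached below -1, so a 2-fold lower level in tKO cells lies within them, and the arms are not shown to be alike in the genotypes.

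The interaction, the difference of both differentiation effects, was called for 0% of the 807 names by edgeR, and for 0 names by the DESeq2 Wald test; 37 names had an unadjusted p under 0.05 in edgeR. The largest of the 6 was that of miR-106b-5p, 1.27 on the log2 scale (SE 0.67, 95% interval -0.13 to 2.67, unadjusted p = 0.0731, adjusted p = 0.937). Omitting the smallest library gave 1.46 (edgeR adjusted p = 0.330). The arm was called in control and not in tKO cells, but this difference did not pass its own test. No arm had an unadjusted p under 0.05.

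Ratios of arms within a library are free of scaling between libraries, and these were added after the data had been seen. The ratio of miR-106b-3p to miR-25-3p, the main arms of the first and the last hairpin, ran from 0.310 to 0.521 over the 16 libraries. Its mean log2 value was -1.28 ± 0.27 in control GM, -1.28 ± 0.12 in control DM3, -1.35 ± 0.34 in tKO GM and -1.39 ± 0.19 in tKO DM3 (SD, n = 4). The difference between media was 0.01 in control cells (exact permutation p = 0.971) and -0.04 in tKO cells (exact permutation p = 0.857), and stood at -0.038 in tKO cells without the smallest library. Over the 16 libraries their TMM-scaled log2 CPM had a Pearson r of 0.972, as a description, since the libraries share group effects.

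miR-93-5p, from the hairpin between them, varied more against miR-25-3p. Its ratio to miR-25-3p ran from 0.554 to 4.68, with a mean log2 value of -0.16 ± 0.36 in control GM, 0.78 ± 1.13 in control DM3, -0.43 ± 0.40 in tKO GM and 0.03 ± 0.84 in tKO DM3. In DM3 the 4 libraries of replicate 1 had ratios of 4.68, 1.92, 1.45 and 1.92, and those of replicate 2 had 1.38, 0.705, 0.563 and 0.701. None of the 12 tests on 3 ratios passed (two-sided exact permutation tests, lowest p = 0.0857, all adjusted p-values at 0.571 or above). With 70 assignments of 4 against 4 libraries, a single separated ratio could not pass over 12 tests, so this decides nothing. Without tKO DM3 line 1 replicate 1 the difference of the log2 ratio of miR-93-5p to miR-25-3p between media in tKO cells was 0.29, against 0.46 with it. The Pearson r of miR-93-5p with miR-25-3p was 0.547, and that of miR-93-5p with miR-106b-3p was 0.626. Its r was lower with miR-106b-5p (0.327) and higher with miR-25-5p (0.815) and miR-93-3p (0.687). For miR-93-3p, the other arm of the miR-93 hairpin, r with miR-106b-3p was 0.871.

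**Figure D3:**
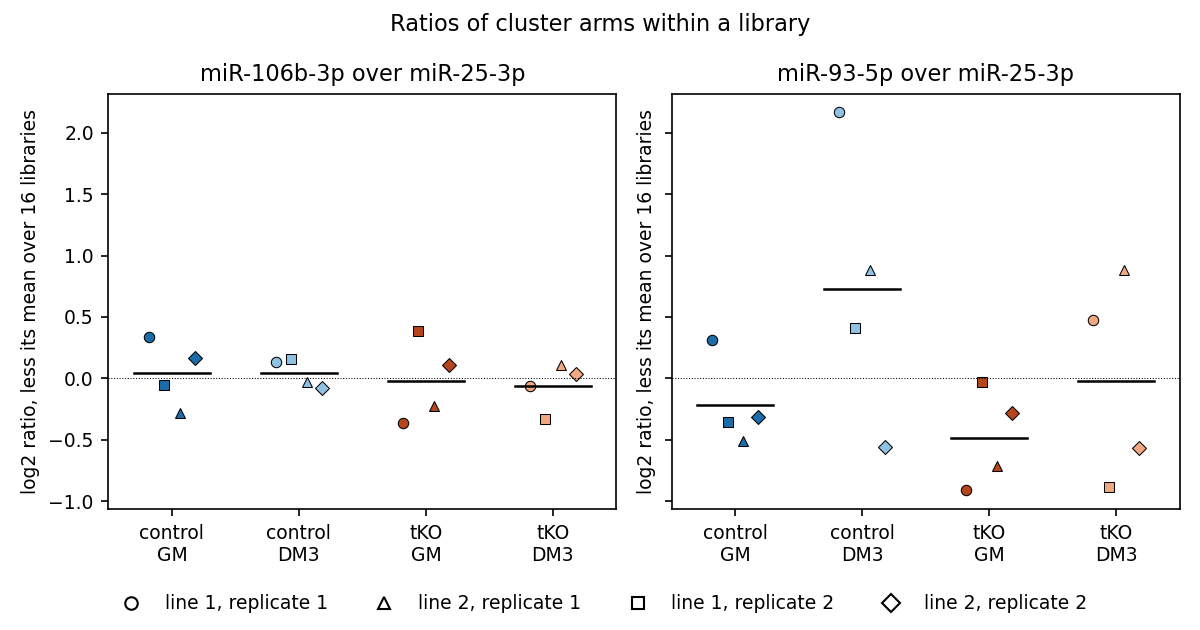
Log2 ratio of miR-106b-3p to miR-25-3p and of miR-93-5p to miR-25-3p in each library, less the mean over 16 libraries; bars are group means of 4. The first stays close to 0, and the second spreads widely in DM3, where replicate 1 libraries lie above replicate 2 libraries.

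The arm used differed between the hairpins. Of the reads of the miR-25 hairpin, 92.7% to 98.9% came from the 3p arm, and of those of miR-93 only 0.499% to 2.48% did. For miR-106b, at least 78.6% of reads in every library came from the 3p arm, which does not carry the AAAGUGC seed; of 126 hairpins with both arms measured, 66 had more reads on the 3p arm. Of the cluster's AAAGUGC reads, most were miR-93-5p, at 3009 CPM in control GM against 146 for miR-106b-5p.

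No hairpin of the cluster was called for a change in the balance of its arms (limma on the log2 ratio of 5p to 3p reads). The background over 126 hairpins was 22.2% for differentiation in control cells and 18.3% in tKO cells, 0.794% for genotype in GM, 2.38% for genotype in DM3 and 0% for the interaction. The largest shift was in tKO cells: the log2 balance of miR-25 differed by -1.203 between DM3 and GM (SE 0.45, adjusted p = 0.0693). In the same cells that of miR-106b differed by 0.95 (SE 0.37, adjusted p = 0.0804). Omitting the smallest library gave -1.22 (limma adjusted p = 0.0895) and 0.79 (adjusted p = 0.190). The miR-25 shift was past the threshold with only sequences listed without mismatch (adjusted p = 0.01902), without control DM3 line 1 replicate 1 (adjusted p = 0.0227) and without control DM3 line 2 replicate 2 (adjusted p = 0.0454).

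**Figure D4:**
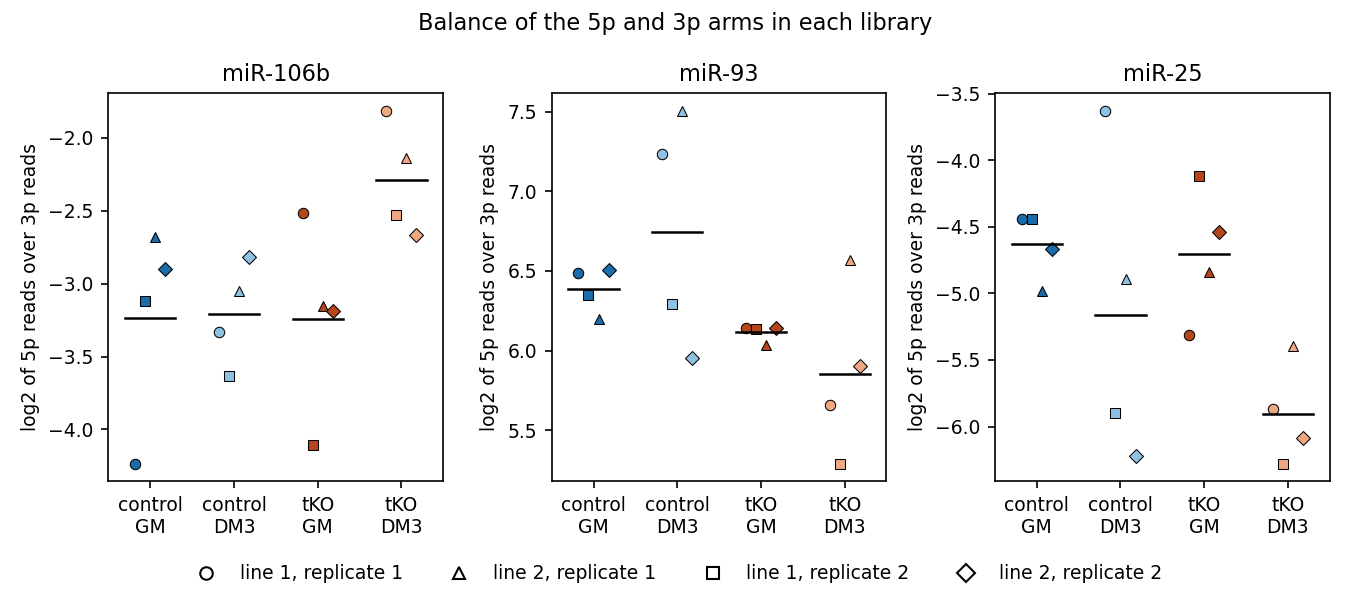
Log2 ratio of 5p to 3p reads of each hairpin in each library, with bars at group means of 4. miR-106b and miR-25 lie below 0 (3p arm) and miR-93 above 0 (5p arm) in all 16 libraries; axes differ between the panels.

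The ends of the arms were read from the listed sequences. Of the reads without mismatch, 99.7% to 100% began at the RefSeq start for miR-106b-5p, miR-93-5p, miR-25-5p and miR-25-3p, so that the seed was as annotated. The share was 91.5% for miR-106b-3p, whose other reads include the loop fragment, and 90.4% for miR-93-3p. For 3 of the 6 arms the most-read form was 1 base longer than the RefSeq entry at the 3' end: miR-106b-5p (22 nucleotides, 46.1% of its reads), miR-25-5p (23 nucleotides, 57.8%) and miR-93-3p (23 nucleotides, 46.8%). The longer form of miR-106b-5p is printed because it meets the loop fragment described further on.
miR-106b-5p, most-read form: uAAAGUGCugacagugcagaua

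Bases added after the templated 3' end were common and differed in kind. miR-93-5p carried a non-templated tail on 25.4% of its reads, with adenine tails on 17.6% and uridine tails on 1.29%. miR-106b-3p carried tails on 27.2%, with adenine on 9.29% and uridine on 13.9%, and miR-25-3p on 22.6%, with 9.08% and 7.50%. Pooled over libraries, these shares are descriptions. Only these 3 arms had 20 reads in every library, the depth asked for a test. None was called between GM and DM3 in control cells, where limma called 45.9% of 183 names, or in tKO cells, where it called 14.8%. For miR-93-5p the log2 odds of a tail differed by -0.22 in control cells (SE 0.11, adjusted p = 0.102) and by -0.23 in tKO cells (SE 0.11, adjusted p = 0.151). Without tKO DM3 line 1 replicate 1 the control difference passed the test (adjusted p = 0.0360), and the tKO difference was -0.12 (adjusted p = 0.435).

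Some reads listed under miR-106b-3p came from the loop between the arms and not from either arm. The hairpin is printed with both mature arms in capitals, followed by the fragment, to show where it lies.
Mir106b hairpin: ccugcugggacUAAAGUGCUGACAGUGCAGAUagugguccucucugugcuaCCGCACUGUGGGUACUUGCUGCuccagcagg
loop fragment: gugguccucucugugcua

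The fragment has 18 nucleotides and 914 reads over the 16 libraries, and covers hairpin bases 34 to 51, counted from 1 at the 5′ end. The most-read form of miR-106b-5p ends at base 33 and miR-106b-3p starts at base 52, so the 3 pieces adjoin without a gap. With its other forms there were 1150 loop reads, the highest number of 644 hairpins with both arms in RefSeq, close to the 1120 of miR-149. Against 38700 arm reads this was a smaller part than for miR-32, with 226 loop reads to 780 arm reads. Within the cluster, miR-93 had 1 loop read and miR-25 had 0. Between the RefSeq arms lie 19 bases in miR-106b and 16 in each of miR-93 and miR-25, and sequences were counted from 16 nucleotides.

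Loop reads were a smaller part of the miR-106b reads after differentiation. Per 100 arm reads there were 3.42, 3.30, 3.49 and 3.31 loop reads in control GM and 0.926, 0.457, 0.612 and 0.840 in control DM3. In tKO GM there were 5.37, 3.31, 5.18 and 3.67, and in tKO DM3 0, 0.542, 0.700 and 0.956. Summed over libraries, that is 612 loop reads to 18108 arm reads in control GM, 22 to 2840 in control DM3, 466 to 11743 in tKO GM and 50 to 6009 in tKO DM3. GM and DM3 did not overlap in either genotype. In control DM3, 2 of the 4 values rest on 1 loop read each. The value of 0 is that of the smallest library, whose 41 arm reads allow a loop share of up to 7.32%.

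The mean log2 ratio of loop to arm reads was 1.96 lower in DM3 in control cells, or 3.89-fold, and 2.33 lower in tKO cells, or 5.04-fold (pseudocount 0.5). The two-sided exact permutation p was 0.0286 for each, the smallest that 4 against 4 libraries can give, and 0.0571 after adjustment over 4 comparisons, which is above the threshold. Without the smallest library the difference in tKO cells was -2.497 (exact permutation test, adjusted p = 0.114). Between genotypes the difference was 0.34 in GM (exact permutation test, adjusted p = 0.114) and -0.03 in DM3 (adjusted p = 0.914), or -0.195 without the smallest library (adjusted p = 0.686).

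The miR-106b hairpin was not alone in this. Hairpins with a mean of at least 10 loop reads numbered 11, miR-106b included. In 63.6% of them all 4 control DM3 libraries lay below all 4 control GM libraries. All tKO DM3 libraries lay below all tKO GM libraries in 45.5%. The mean was taken over GM and DM3 together, so a hairpin could pass through its GM libraries alone. These shares are therefore not a neutral background. In control cells 2 of the 11 lay the other way without overlap, and the differences reached 1.66; in tKO cells 0 of 11 did. The median difference of the 11 was -2.49 in control cells and -1.66 in tKO cells. Over all other hairpins together there were 0.0192 to 0.0277 loop reads per 100 arm reads in control GM and 0.00767 to 0.0125 in control DM3. Sequences under 16 nucleotides, not counted here, made up 1.07% to 1.89% of reads in control GM and 3.31% to 9.59% in control DM3. These control groups did not overlap. In tKO cells such sequences made up 1.13% to 4.33% in GM and 1.86% to 13.98% in DM3, with overlap. The part of short sequences in the loop result was not tested.

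**Figure D5:**
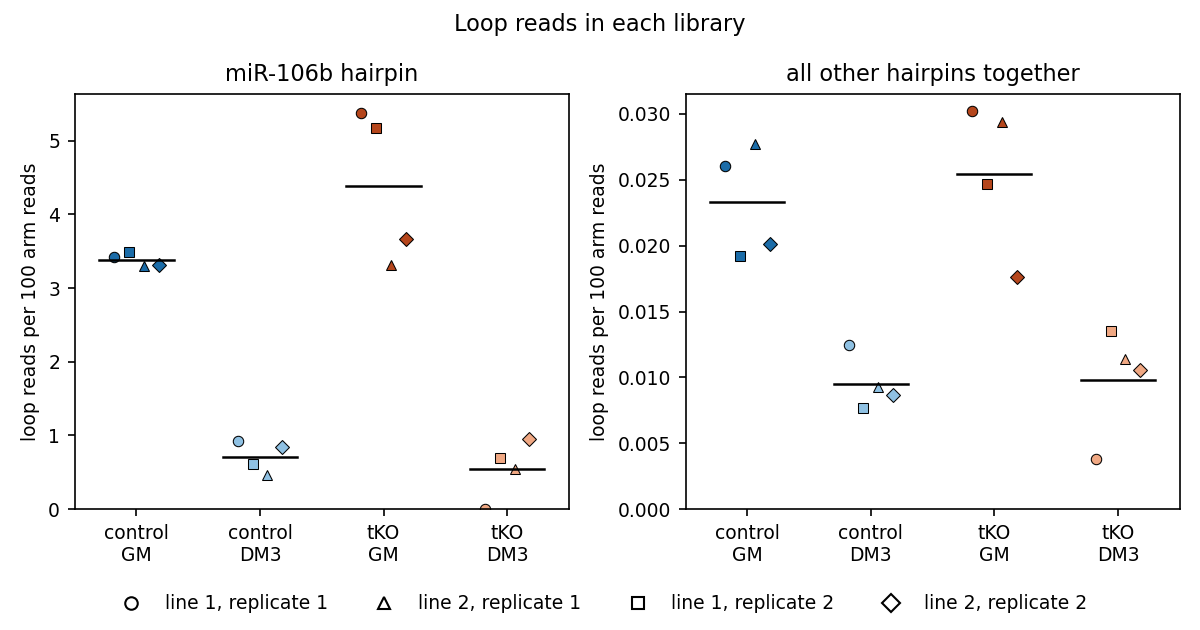
Loop reads per 100 arm reads of the miR-106b hairpin, and of all other hairpins together, in each library; bars are group means of 4 and the panels have different axes from 0. GM libraries lie above DM3 libraries in both panels.

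The paralogues were read in the same fit. Of 12 paralogues and seed relatives on the list, 10 passed the filter on low counts; miR-363-3p and miR-367-3p did not, at no more than 3.90 CPM in a library. In control cells 6 of these 10 fell with differentiation, and in tKO cells 4 did, where 11.8% and 8.3% of all names tested were called lower. miR-92a-3p, the abundant miR-17-92 member with the miR-25-3p seed, fell by 2.49 on the log2 scale in control cells (SE 0.29, adjusted p = 1.37e-05) and by 2.34 in tKO cells (SE 0.29, adjusted p = 3.18e-05). miR-17-5p, the miR-17-92 arm with the miR-93-5p seed, fell by 1.61 in control cells (SE 0.32, adjusted p = 0.00106) and by 1.29 in tKO cells (SE 0.32, adjusted p = 0.00857). miR-20a-5p fell by 1.54 and 1.43, with adjusted p-values of 0.00617 and 0.0155. miR-106a-5p was the fourth called in both genotypes, while miR-18a-5p and miR-32-5p were called in control cells. Without tKO DM3 line 1 replicate 1, 3 of the 10 were called lower in tKO cells, miR-106a-5p losing its call (edgeR adjusted p = 0.0742).

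Within-library ratios of a cluster arm to its paralogue were tested for 3 pairs in 4 comparisons. After adjustment 0 of 12 passed (two-sided exact permutation tests), and 1 had an unadjusted p under 0.05. The smallest p that 4 against 4 libraries can give is 0.0286. A single separated ratio could therefore not pass over 12 tests, and the absence of calls decides nothing. The log2 ratio of miR-93-5p to miR-17-5p was 0.78 higher in DM3 in control cells (exact p = 0.114, adjusted p = 0.229) and 0.53 higher in tKO cells (p = 0.229, adjusted p = 0.343). That of miR-25-3p to miR-92a-3p was 0.68 higher in control cells (exact p = 0.114, adjusted p = 0.229) and 1.14 higher in tKO cells (p = 0.0571, adjusted p = 0.171). That of miR-106b-5p to miR-20a-5p differed by -0.19 in control cells (exact p = 0.771, adjusted p = 0.771) and by 1.05 in tKO cells (p = 0.0286, adjusted p = 0.171, the ratio being higher in 4 of 4 DM3 libraries than in any GM library). With the smallest library left out, the 3 tKO differences were 0.68, 1.35 and 1.149 in this order of pairs.

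The cluster's part of each seed family is given as a share of the family's reads. Of 6 names with the seed AAAGUGC, miR-6383 not being counted, the cluster's pair made up 46.3% ± 10.6 in control GM, 58.7% ± 6.64 in control DM3, 36.9% ± 8.32 in tKO GM and 46.4% ± 6.72 in tKO DM3 (SD, n = 4). These 6 names together stood at 6769 ± 967 CPM in control GM and 4174 ± 2062 in control DM3, against 5756 ± 796 and 3463 ± 1442 in tKO cells. Of the 6 names with the seed AUUGCAC, miR-25-3p made up 15.7% ± 3.53 in control GM, 23.03% ± 7.13 in control DM3, 14.4% ± 4.67 in tKO GM and 26.4% ± 6.60 in tKO DM3, and most of the rest was miR-92a-3p. That family stood at 22102 ± 7999 CPM in control GM and 5693 ± 718 in control DM3, against 19330.0 ± 3522 and 5374 ± 912 in tKO cells. With the smallest library left out, the tKO DM3 shares were 48.6% ± 6.31 and 29.04% ± 4.87 (n = 3). These shares were not tested.

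Likeness was measured against the mean standardised TMM-scaled log2 CPM of miR-106b-5p, miR-93-5p and miR-25-3p over the 16 libraries. The other arms, miR-106b-3p among them, did not enter this mean. Among 243 names ranked, the most alike were miR-140-3p (Pearson r 0.949), let-7a-5p (0.944), let-7c-5p (0.935), miR-221-3p (0.912) and miR-125a-5p (0.911). miR-17-5p ranked 9 (0.884), miR-20a-5p 16 (0.855) and miR-92a-3p 21 (0.822). The points share groups, libraries and scaling, so these values describe likeness and carry no test.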

How the data were processed

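Small RNA libraries of 15 to 50 nucleotide inserts were made from total RNA, per the labels' protocols. The submitters' processing notes name cutadapt 1.15, STAR 2.5.4 and mm10. The deposited tables are unitas miRNA tables, per the file headers and names, and hold expected counts of reads per sequence, with no normalization; reads of several matches enter as fractions. Further deposited columns hold expected counts of reads with tails. The unitas version is not given in the sources used here.

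Expected counts were summed per name. Of 2510 listed names, 236 without a mature sequence of their own were merged, which left 2274. Sums were rounded and tested with edgeR 4.0.16 in R 4.3.3 (filterByExpr with a smallest count of 10, 807 names, TMM factors 0.783 to 1.42, a coefficient per group over all 16 libraries, robust quasi-likelihood F tests). The common biological coefficient of variation was 0.477. Arm and tail balance were tested with limma 3.58.1 (pseudocount 0.5, a mean of 20 reads on each arm, or 20 reads in every library). Ratios of arms and loop reads were tested by exact permutation. Adjusted p-values are Benjamini-Hochberg. Both steps were tested on simulated data, and the outcome is not given here. Loop reads are sequences of at least 16 nucleotides found in a RefSeq hairpin between the arms, allowing 3 bases of overlap. Limits from 3 counts cover counting error only, since reads carry no molecular identifiers; the 95% intervals of fold changes come from the edgeR fit.

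The members, lists and most tests were chosen with earlier results of these data known. The names given are the 6 arms, 12 paralogues or seed relatives, and the marker list. To these come the 5 names most like the mean of miR-106b-5p, miR-93-5p and miR-25-3p. The within-cluster ratios, the loop reads and the hairpin match were chosen after seeing the data. Whether replicate numbers pair libraries was checked on deviations from group means. Libraries with the same number correlated at 0.11 on average (28 of 48 pairs over 0.1). Those with different numbers correlated less, at -0.105 (11 of 48). No label ties the numbers to a shared batch, and the main fit did not take them as pairs. Lines are shared between media: libraries of a line correlated at 0.159 across media (9 of 16 pairs over 0.1) and those of different lines at -0.149 (3 of 16). The main fit left out both line and replicate number, although libraries that share them were more alike. A fit with line and replicate blocks was run as an alternative, and there miR-93-5p was called lower in both genotypes.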

Additional observations from a re-analysis of the deposited data

Results flagged for a closer look

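In 5 of 64 groups of 4 values examined, the highest or lowest library stood apart from the other 3 by a gap above Dixon's 95% critical value; chance gives about 1 in 20 groups. miR-106b-3p stood at 1743 CPM in control GM line 1 replicate 1, above the others of its group. miR-93-5p stood at 2903 CPM in tKO DM3 line 2 replicate 1. The log2 ratio of miR-93-5p to miR-93-3p was 6.04 in tKO GM line 2 replicate 1, low in a group that otherwise lay very close together. The log2 ratio of miR-25-3p to miR-92a-3p was -3.10 in control GM line 1 replicate 1. That of miR-93-5p to miR-17-5p was -0.90 in tKO GM line 1 replicate 1. All 5 values come from replicate 1 libraries.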

How the results depend on the processing

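Of 6 arms, 5 were called lower in control DM3. Summing the replicates of a line left 3, and leaving out single libraries gave 3 to 5. In tKO cells 3 were called; no filter, a fit of only the groups compared, and summed replicates each left 1, and leaving out single libraries gave 1 to 3. With the replicate block the counts were 5 and 3, and with the replicate block and line 6 and 4, since miR-93-5p then passed (adjusted p = 0.0142 and 0.0319); over all 807 names that fit raised the lower calls from 95 to 126 in control and from 67 to 90 in tKO cells. The blocks changed no other count of called arms, hairpins or ratios. The arm balance of 0 hairpins in tKO differentiation became 1 with sequences without mismatch, and ranged from 0 to 1 over omissions; tails in control cells likewise ranged from 0 to 1. Values near 0 changed sign. miR-106b-3p between genotypes in DM3 was 0.12, -0.092 with hairpin-matched sequences, and -0.11 to 0.45 over omissions. The miR-106b balance in control differentiation was 0.02, -0.063 without mismatches, and -0.31 to 0.21. The ratio of miR-106b-5p to miR-20a-5p ranged from -0.49 to 0.20 in control cells, and that of miR-106b-3p to miR-25-3p from -0.10 to 0.10 in control and -0.15 to 0.10 in tKO cells. The cause was not tested. Between genotypes 9 names were called in GM and 7 in DM3 by edgeR, and 20 and 19 by the DESeq2 1.42.0 Wald test; without tKO DM3 line 1 replicate 1, 53 were called in DM3, with summed replicates 74, and with the replicate block and line 27 in GM and 21 in DM3, none of them an arm of the cluster, and without that library or with summed replicates 1 name, not an arm, was called for the interaction. In the smallest library the floor of 3 reads is 26.6 CPM, above the values of miR-25-5p (1 read) and miR-93-3p (2 reads) there.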
